A study of Arabidopsis thaliana with 4 samples.

Results

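Genes of the TRICHOME BIREFRINGENCE-LIKE (TBL) family of Arabidopsis thaliana were compared between seedlings treated with aluminium and control seedlings. Members were the genes that the array's probe table pairs alone with a probe set under the symbol TBR or TBL followed by a number. This gave 22 genes, of 13356 genes on the array with a name of their own, each with 1 probe set. The RefSeq table of assembly TAIR10.1 lists 46 genes of the family, so 24 were not taken by the rule. Intact seedlings were submerged for 16 h in a weak liquid MS (Murashige and Skoog) medium that held sucrose, with aluminium at 50 µM or with a mock treatment. Each treatment had 2 arrays, stated as biological replicates, and each array carried RNA of 100 pooled seedlings. The labels give no accession or line for the plants. They repeat 1 treatment text for all 4 samples, so the control group rests on the sample titles and on the word mock.

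The TBL proteins known as acetyltransferases sit in the Golgi membrane and pass acetyl groups to wall polysaccharides. TBL38 is described below as an acetylesterase instead. Different members use different polymers: some acetylate xylan, others mannan, xyloglucan or pectin. The RWA proteins and AXY9 act before them in the supply of acetyl groups. Acetylation changes how hemicelluloses pack in the wall and how pectin binds cations. Aluminium binds to the root cell wall, and TBL27, a xyloglucan acetyltransferase, is known for an effect on aluminium sensitivity in Arabidopsis. TBL27 and the founding xylan acetyltransferase ESK1 (TBL29) had no named probe set here and were not analysed here.

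No member passed limma's moderated test over all 22746 plant probe sets (adjusted p = 0.966 at the lowest), where 0.0% of all probe sets passed. At an unadjusted p under 0.05 there were 2 members of 22, TBL43 and TBL39, against 4.77% of all plant probe sets. TBL43 was lower with aluminium and TBL39 higher, on both arrays of each treatment. In all, both aluminium arrays lay above both controls for 2 members (TBL39 and TBL41), where 16.5% of all probe sets did so. For another 5 they lay below both (TBL23, TBL30, TBL36, TBL38 and TBL43), against 16.2% of all probe sets. By the rule that picked these 5, the lowest array had to be an aluminium one, and in each it was aluminium replicate 1. That array was lowest for 28.8% of all plant probe sets, but there any array could be lowest, so the shares are not comparable. The quality measures of aluminium replicate 1 are given below, and its part in these differences was not tested. Of the 7 genes without overlap, 6 had group means at least 2-fold apart, and 19.6% of all probe sets met that rule. With so few genes, these shares are counts of a short list and no more. The groups overlapped in the other 15 members.

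Over the 22 members the median difference, aluminium minus control, was −0.09 on the scale log2(intensity + 16), with 10 members positive and 12 negative. The median over all plant probe sets was 0.01, with 50.4% positive. The differences ran from −3.30 for TBL43 to 2.03 for TBL39. The typical 95% interval of a member reached 1.98 to each side, or 3.94-fold, and the interval excluded 0 for these 2 genes alone. A pseudocount of 16 was added before the log, which understates the change of dim genes. The replicate arrays of a treatment differed as much for this family as elsewhere, with a median pooled SD of 0.78 for members and 0.79 for all plant probe sets.

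**Figure D1:**
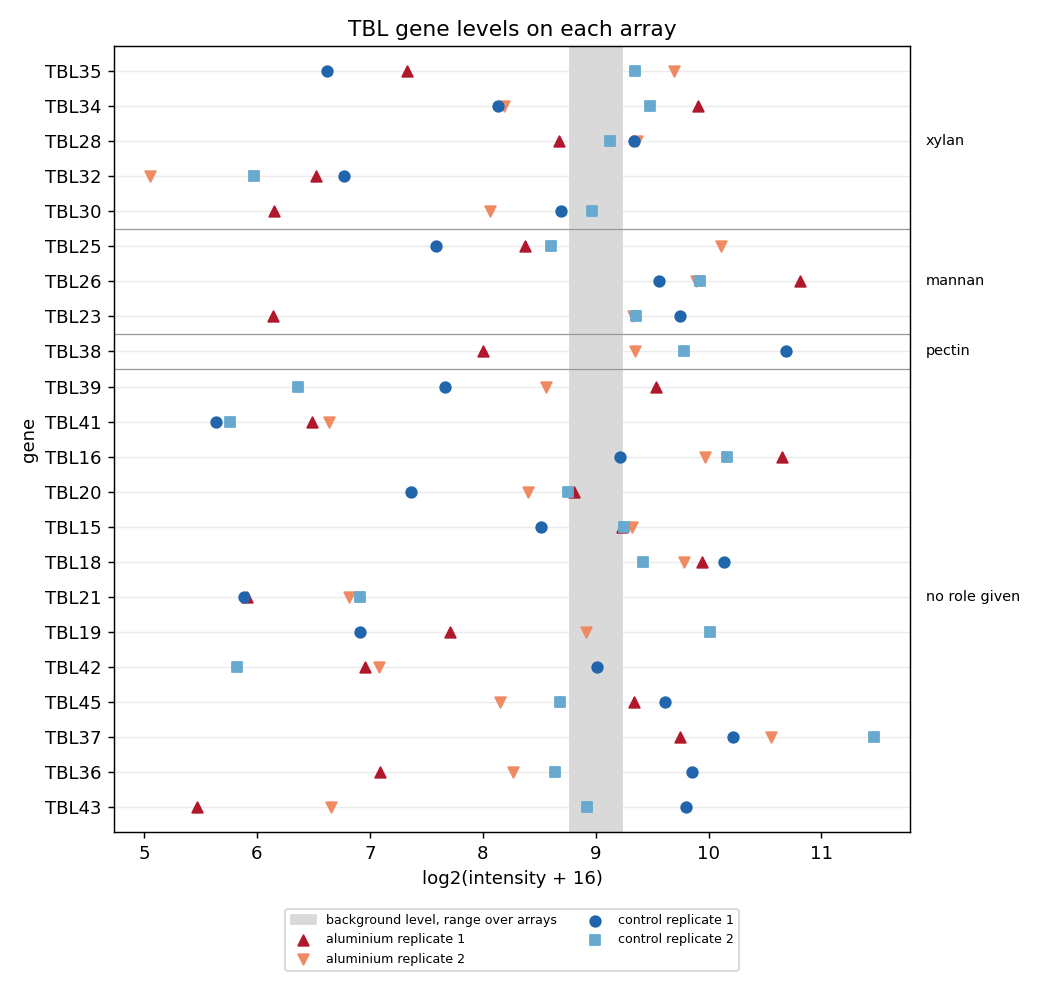
Level of each of the 22 TBL genes on each of the 4 arrays, as log2(intensity + 16), with genes grouped by the wall polymer their product is known to act on. The grey band spans the background level of the 4 arrays (422 to 586 before the log). The TBL43 points of both aluminium arrays lie left of both control points, and those of TBL39 lie right of them.

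The arrays differed in quality measures that do not depend on the family. Each array's background level was the 95th percentile of its 27 bacterial control probe sets, a strict line that many expressed genes may not reach. By it, 35.1% to 45.3% of plant probe sets were above background. Aluminium replicate 1 had the highest ratio of 3′ to 5′ signal, a measure that grows as RNA is degraded: 3.52 for GAPDH (1.44 to 1.71 on the other arrays) and 6.01 for actin (1.94 to 3.07). Of 4 leaf markers 3 were measured (RCA, PRK and LHCB4.1). All 3 were lower on both aluminium arrays, where 16.2% of all probe sets were, and none passed limma (adjusted p = 0.966 at the lowest). Their summed intensity was 4997 and 8980 on the aluminium arrays and 27064 and 18588 on the control arrays. The sum of 2 measured root genes of 4 (PYK10 and EXPA7) was 573 and 1074 on the aluminium arrays and 1429 and 995 on the control arrays. EXPA7 was under background on every array and PYK10 on aluminium replicate 1, so this sum says little about root tissue. None of 4 trichome and 8 xylem markers had a named probe set. In RNA of whole seedlings, fewer cells of a type and less RNA per cell cannot be told apart. The part of tissue makeup or RNA quality in the differences was not tested.

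Among the members, 4 were above background on every array (TBL16, TBL18, TBL26 and TBL37), 14 on some arrays and 4 on none (TBL20, TBL21, TBL32 and TBL41). Of all plant probe sets, 18.0% were above background on every array and 34.7% on none. For the 4 members above background on every array, the brightest array exceeded the dimmest by 1.66-fold (TBL18), 2.41-fold (TBL26), 2.74-fold (TBL16) and 3.33-fold (TBL37). Control replicate 1 was the highest array for 8 members and the lowest for 10. It thus held an extreme for 18 of 22, where it did so for 52.8% of all plant probe sets. Aluminium replicate 1 held an extreme for 12 members, against 60.5% of all.

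Among the xylan acetyltransferases, 1 of 5 had groups without overlap, where 32.7% of all probe sets did. Xylan is the main hemicellulose of secondary walls, and TBL28, TBL30, TBL32, TBL34 and TBL35 are known to add acetyl groups to it. The differences of these 5 genes had a median of −0.21, with 2 positive and 3 negative.

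TBL30 (AT2G40160) was the 1 xylan member whose groups did not overlap. It read 55.2 and 251 on the aluminium arrays and 398 and 486 on the control arrays. Only control replicate 2 exceeded its background level, so no fold is given for TBL30. None is given below for a gene with an array under background in each group. In log2 values it had 7.11 ± 1.35 in the aluminium group and 8.83 ± 0.20 in the control group (SD, n = 2 each). The difference was −1.72, with a 95% interval from −3.86 to 0.41 (limma, adjusted p = 0.966). Without aluminium replicate 1 it was −0.77, and without any other single array −1.59 to −2.68.

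TBL28 (AT2G40150) is the neighbouring gene of TBL30 in TAIR10.1. It read 393 and 642 on the aluminium arrays and 632 and 543 on the control arrays, so that the treatments overlapped. Its difference of −0.21 had an interval from −1.92 to 1.49. The 2 neighbours were thus measured with different spreads on the same arrays, and the gap between their differences was not tested.

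For TBL35 (AT5G01620), each treatment had 1 high and 1 low array. It read 813 on aluminium replicate 2 and 634 on control replicate 2, against 145 and 82.3 on the arrays of replicate 1. The difference of 0.53 had a standard error of 1.24. TBL34 (AT2G38320) read 947 and 276 on the aluminium arrays and 264 and 698 on the control arrays. The TBL34 arrays also had 1 high and 1 low in each treatment, but the high ones were aluminium replicate 1 and control replicate 2. The TBL34 difference was 0.24 with a standard error of 0.92. TBL32 (AT3G11030) read 76.2 and 17.2 on the aluminium arrays and 93.3 and 47.0 on the control arrays, under background on all 4 arrays. Its probe set is of the kind the manufacturer marks as shared between transcripts, so this value is uncertain, and the difference was −0.59.

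The mannan acetyltransferases did not move one way. Mannan is a hemicellulose of primary walls and of seeds, and TBL23, TBL25 and TBL26 are known to acetylate it. TBL25 and TBL26 had positive differences and TBL23 a negative one.

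TBL23 (AT4G11090) read 54.5 and 628 in the aluminium group, while its controls read 841 and 641. The aluminium arrays thus lay below both controls, but aluminium replicate 2 was close to the lower control and only aluminium replicate 1 stood apart. The log2 values were 7.73 ± 2.26 in the aluminium group and 9.55 ± 0.27 in the control group (SD, n = 2 each). The difference was −1.82, with an interval from −4.64 to 1.01. Without aluminium replicate 1 it was −0.22.

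TBL25 (AT1G01430) read 315 and 1086 on the aluminium arrays and 177 and 374 on the control arrays. The highest value was on aluminium replicate 2, the only array above background, while aluminium replicate 1 lay between the controls. The TBL25 difference was 1.14, with an interval from −1.04 to 3.32. Without aluminium replicate 2 it was 0.27, and without aluminium replicate 1 it was 2.01.

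TBL26 (AT4G01080) was above background on every array. It read 1785 and 929.8 on the aluminium arrays and 741 and 955 on the control arrays. Aluminium replicate 1 was the highest array and the others lay close together. The TBL26 difference was 0.61, with an interval from −1.17 to 2.38. It was 0.14 without aluminium replicate 1.

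TBL38 (AT1G29050), which acts on pectin as an acetylesterase in the seed coat, was the 1 member given a pectin role here. It read 240 and 636 on the aluminium arrays and 1635 and 863 on the control arrays. Both aluminium arrays lay below both controls, and all but aluminium replicate 1 exceeded background. The log2 values were 8.67 ± 0.95 in the aluminium group and 10.23 ± 0.64 in the control group (SD, n = 2 each). The difference was −1.56, with an interval from −3.56 to 0.44 (limma, adjusted p = 0.966). It was −0.89 without aluminium replicate 1, −1.11 without control replicate 1, −2.24 without aluminium replicate 2 and −2.02 when control replicate 2 was left out.

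The remaining 13 members have no role given here. TBL43 (AT2G30900) had the largest difference of the family. It read 28.4 and 85.0 on the aluminium arrays and 874 and 470 on the control arrays. Both aluminium arrays were far below both controls. The log2 values were 6.07 ± 0.84 in the aluminium group and 9.36 ± 0.62 in the control group (SD, n = 2 each). The difference was −3.30, with a standard error of 0.79 and an interval from −5.24 to −1.36. By unadjusted p (0.00611), TBL43 ranked 81 among the 22746 plant probe sets, so that 0.356% had a p as small, and it did not pass the adjusted test of limma (adjusted p = 0.966). Only control replicate 1 exceeded background. Leaving out any 1 array kept it between −3.89 and −2.70.

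TBL39 (AT2G42570) had the largest positive difference. It read 727 and 361 on the aluminium arrays and 187 and 66.3 on the control arrays. All controls lay below all aluminium arrays, and aluminium replicate 1 alone exceeded background. The log2 values were 9.05 ± 0.69 in the aluminium group and 7.01 ± 0.92 in the control group (SD, n = 2 each). The difference was 2.03, with a standard error of 0.81 and an interval from 0.03 to 4.04. The unadjusted p was 0.0476, a value that 4.44% of plant probe sets matched or beat, and the adjusted test of limma gave 0.966. The TBL39 difference was 1.38 to 2.68 when 1 array was left out.

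TBL41 (AT3G14850) had the closest replicates of the 7 genes without overlap. It read 73.9 and 83.5 on the aluminium arrays and 33.7 and 38.4 on the control arrays, all under the background level. The log2 values were 6.56 ± 0.10 and 5.70 ± 0.09 (SD, n = 2 each). The difference was 0.86, with an interval from −0.77 to 2.49, since limma draws its small spread toward that of the other genes. With both groups under background, no fold is given.

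TBL36 (AT3G54260) read 120 and 293 on the aluminium arrays and 911 and 383 on the control arrays. The groups did not overlap, and control replicate 1 alone exceeded background. The TBL36 difference was −1.57, with an interval from −3.60 to 0.46. It was −0.96 without control replicate 1, −0.98 without aluminium replicate 1, −2.16 without aluminium replicate 2 and −2.18 without control replicate 2.

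**Figure D2:**
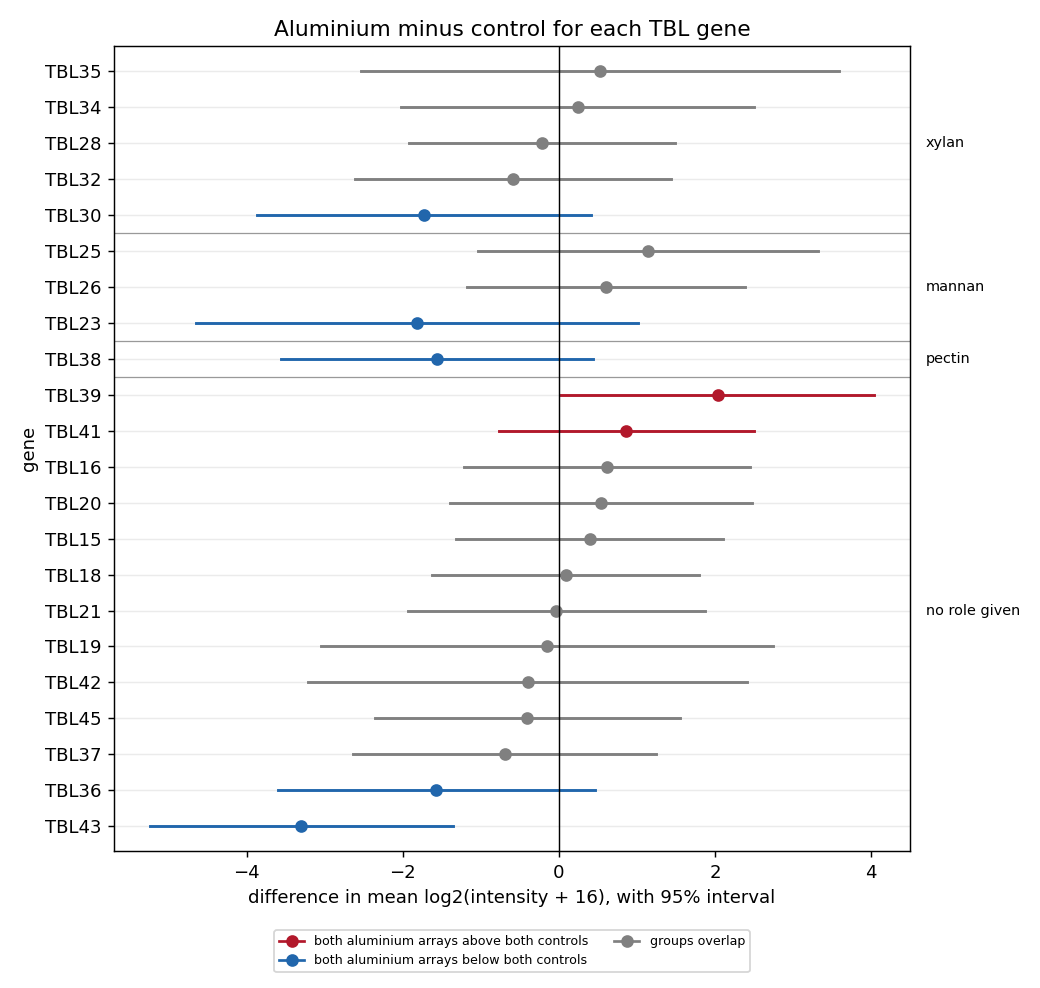
Difference of the mean log2(intensity + 16), aluminium minus control, for each TBL gene, with limma's 95% interval from 2 arrays per treatment. The intervals of TBL43 (−5.24 to −1.36) and TBL39 (0.03 to 4.04) exclude 0, and the other 20 include it.

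TBL37, TBL16 and TBL18 were above background on every array, and their groups overlapped. TBL37 (AT2G34070) read 844 and 1484 on the aluminium arrays and 1176 and 2811 on the control arrays. Control replicate 2 stood highest, and the TBL37 difference was −0.69, with an interval from −2.64 to 1.25. TBL16 (AT5G20680) read 1588 and 984 on the aluminium arrays and 579 and 1134 on the control arrays. Its low array was control replicate 1, and its difference was 0.62, with an interval from −1.21 to 2.45. TBL18 (AT4G25360) was among the steadiest members, with 968 and 865 on the aluminium arrays and 1108 and 668 on the control arrays. Both aluminium arrays lay between the controls, and the TBL18 difference was 0.09, with an interval from −1.62 to 1.80.

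TBL15 (AT2G37720) read 586 and 623 on the aluminium arrays and 349 and 592 on the control arrays. Control replicate 1 alone was low, and the TBL15 difference was 0.40. TBL45 (AT2G30010) read 632 and 269 on the aluminium arrays and 766 and 396 on the control arrays. Here replicate 1 was the brighter array in each treatment, and the difference was −0.40. TBL20 (AT3G02440) read 432 and 321 on the aluminium arrays and 149 and 417 on the control arrays, with control replicate 1 again the low array and a difference of 0.54.

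TBL19 (AT5G15900) and TBL21 (AT5G15890) are neighbouring genes in TAIR10.1. TBL19 read 193 and 467 on the aluminium arrays and 104 and 1018 on the control arrays. The controls enclosed both aluminium arrays, and the TBL19 difference was −0.15 with a standard error of 1.18. TBL21 read 44.1 and 96.8 on the aluminium arrays and 43.0 and 105 on the control arrays. For both neighbours, the arrays of replicate 2 were the brighter in each treatment. The TBL21 difference was −0.03. TBL42 (AT1G78710) read 108 and 119 with aluminium, between controls of 499 and 40.5. Its difference of −0.40 had a standard error of 1.14.

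Leaving out 1 array at a time kept the sign of the difference for 12 members and turned it for 10. The sign held for TBL15, TBL16, TBL23, TBL25, TBL26, TBL30, TBL36, TBL37, TBL38, TBL39, TBL41 and TBL43. The size did not always hold with it: the difference was 0.03 for TBL15 and 0.14 for TBL16 without control replicate 1, and −0.07 for TBL37 without control replicate 2. Among the 10 that turned, TBL42 swung the most, from −1.99 without control replicate 2 to 1.20 without control replicate 1. TBL19 went from −1.70 without control replicate 1 to 1.40 without control replicate 2.

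**Figure D3:**
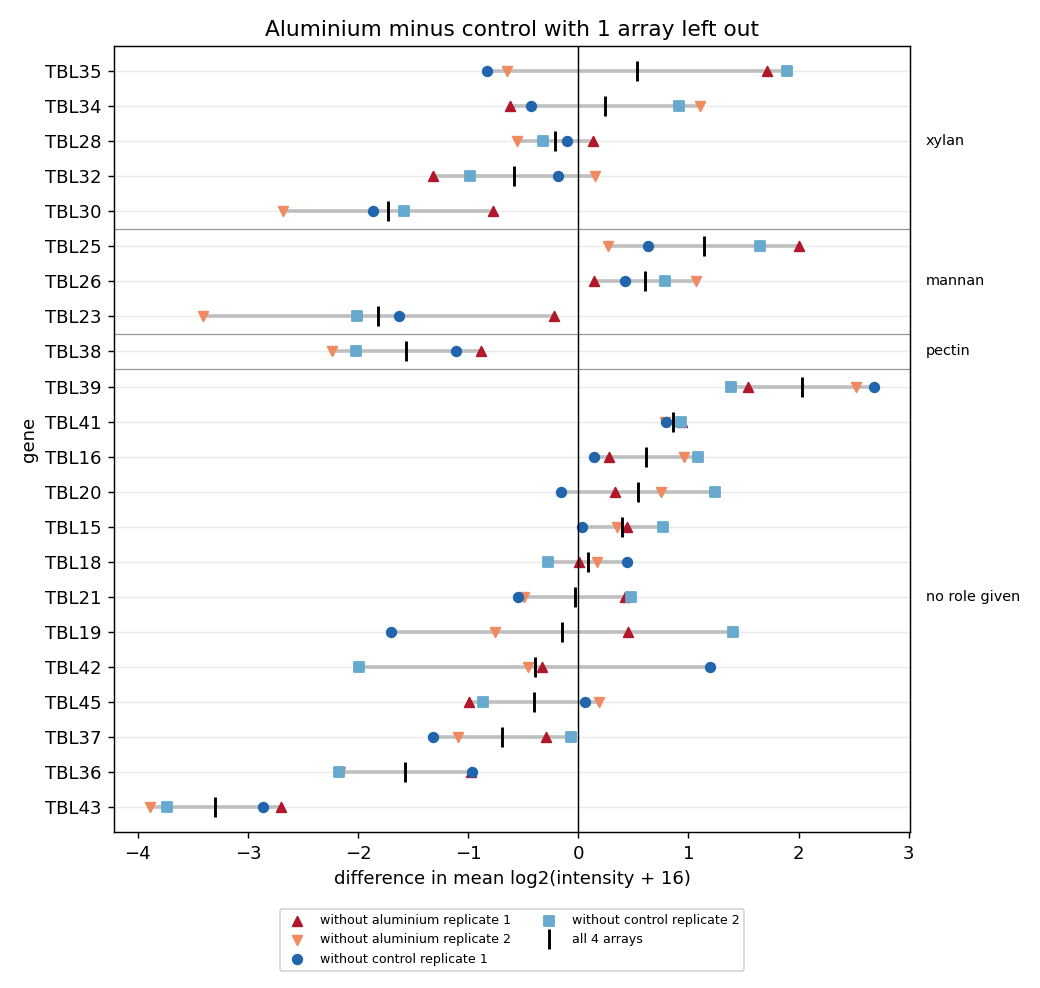
Aluminium minus control for each TBL gene with each array left out in turn (coloured points) and with all 4 arrays (black bar), in log2(intensity + 16). The points of TBL43 lie between −3.89 and −2.70, and those of TBL41 between 0.79 and 0.94, while those of TBL19 lie on both sides of 0.

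A pair of family genes stand in the probe table under locus numbers and were not counted as members. RefSeq names AT5G06700 TRICHOME BIREFRINGENCE, the gene that gave the family its name, from a mutant with altered cellulose in trichome walls. It read 382 and 91.4 on the aluminium arrays and 112 and 52.2 on the control arrays, under background on all arrays. The groups overlapped, and the AT5G06700 difference was 1.14, with an interval from −1.07 to 3.36. AT2G31110 (TBL40) had 2 probe sets, both above background on every array. One read 1467 and 1406 on the aluminium arrays and 1257 and 1814 on the control arrays, a difference of −0.07. The other read 3016 and 1541 against 1464 and 1761, a difference of 0.42. The treatments overlapped on both, and the probe sets differed in sign.

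Of 8 genes listed as partners in wall acetylation, 1 was measured. AXY9 (AT3G03210), which acts with the RWA proteins, read 1245 and 1285 on the aluminium arrays and 1575 and 1242 on the control arrays. The arrays were close to each other, and the difference was −0.14, with an interval from −1.79 to 1.50. None of 6 pectin acetylesterases, which take acetyl groups off pectin, and none of 6 cellulose synthases had a named probe set.

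The genes that build the polymers which TBL proteins act on did not pass the test either. Of 9 listed xylan genes, 2 were measured, and both lay lower on both aluminium arrays, as 16.2% of all probe sets did. GUT1 (AT5G61840, also IRX10L), a xylan backbone synthase, read 1058 and 1463 on the aluminium arrays and 2528 and 1573 on the control arrays, a difference of −0.67 with a standard error of 0.70. GUT2 (AT1G27440, also IRX10), its close relative, read 1200.0 and 1325 against 1425 and 1498, a difference of −0.21 with a standard error of 0.66. Of 9 listed xyloglucan and glucomannan genes, CSLC04 (AT3G28180), which makes the xyloglucan backbone, was the 1 measured. It read 669 and 1104 with aluminium, below the controls at 1473 and 1285, with a difference of −0.67.

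A further list was taken by symbol once the probe table had been seen, with the CSLA and CSLC glycan synthases and the xylan genes IRX15 and IRX15-L. All 9 were measured and 0 passed limma, where 0.0% of all probe sets did (adjusted p = 0.966 at the lowest). Their median difference was −0.58, with 2 positive and 7 negative, and 4 lay lower on both aluminium arrays, where 16.2% of all probe sets did. These 4 include CSLC04, already given above, so that the lists are not independent. They also include CSLA03, which was under background on all 4 arrays. ATCSLC08 (AT2G24630) had the largest difference. It read 208 and 421 with aluminium, under background, against 1003 and 827 in controls, above it. With the aluminium arrays set to their background levels, the group means were 1.74-fold apart. That bounds the gap on these arrays and not the effect of the treatment. The ATCSLC08 difference was −1.57, with an interval from −3.34 to 0.21, which included 0. CSLA01 (AT4G16590), of the mannan synthase family, was under background on all 4 arrays, its groups overlapped, and its difference was −1.16.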

How the data were processed

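The authors deposited one linear intensity per probe set for 4 Affymetrix ATH1 arrays. GCOS and RMA are named in the submitters' processing notes, and their roles are not given in the sources used here. With 2% of probe sets trimmed at each end, every array averaged 500.0, so the deposited intensities had been scaled globally. The probe table gave names, matched by Entrez identifier to RefSeq (TAIR10.1), which matched all 22 members and was used for names and neighbours only.

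Values were log2(intensity + 16). After 64 control probe sets were left out, limma 3.58.1 (R 4.3.3) fitted group over 22746 plant probe sets with no filter, with Benjamini-Hochberg adjustment and a threshold of 0.05, two-sided. The fit was run on simulated data with known changes, as a check of the code. The outcome is not used here to judge which changes these arrays could detect. Arrays number 4, which limits the precision. The p-values compare each difference with the spread between these arrays, which limma draws toward that of all probe sets. Replicate number was not a block. A fold bound is given where 1 group lay under background on both arrays and the other above it on both. It applies to these arrays only.

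The members, lists and naming rule were chosen with earlier results of these data known. All members are named. In the pathway lists, the 2 genes with the largest differences are named. Pectin acetylesterases were taken by RefSeq synonym, since the symbols PAE1 and PAE2 are proteasome subunits there. Likeness of patterns between genes was not computed. Plots were made with matplotlib 3.10.9.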

Additional observations from a re-analysis of the deposited data

Results flagged for a closer look

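A pair of results come from control probe sets outside the comparison, and both were brighter on aluminium replicate 1 than on either control. The geometric mean of the 18 hybridization controls, added to each hybridization mix, was 131442 and 11226 on the aluminium arrays and 51057 and 6339 on the control arrays. Aluminium replicate 1 thus had 2.57 times the level of control replicate 1, the brighter control array. For 25S ribosomal RNA the values were 3511 and 533 on the aluminium arrays and 1362 and 416 on the control arrays, a factor of 2.58. In both, the arrays numbered 1 exceeded the arrays numbered 2 of either treatment. Among TBL genes, aluminium replicate 1 was the lowest array for 7 and the highest for 5, and a part of these array levels in those values was not tested.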

How the results depend on the processing

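The count of members past the adjusted test was 0 under every alternative run, as was the count over all probe sets. With the replicate block it was 0, with a smallest adjusted p of 0.899. With a spread that follows the mean, limma's smallest adjusted p over all probe sets was 0.300, and 0.0954 in the robust form. Among members the smallest values were 0.969 and 0.973. Same-numbered arrays deviated together with r = 0.0867 across probe sets, and the labels give no shared batch for a number, so the numbers were not used as pairs. A threshold of 0.1 gave 0 as well in the main fit. The median difference was −0.09 in the main fit and ranged from −0.17 to 0.21 over the alternatives. It was positive without the dimmest 50% of probe sets (0.09), without aluminium replicate 1 (0.07) and without control replicate 2 (0.21). Without the dimmest 25% of probe sets, 1 of 19 members was higher on both aluminium arrays and 5 lower, against 16.3% and 16.7% of the probe sets kept. Without the dimmest 50%, 0 of 15 were higher and 3 lower, against 16.8% and 17.2%. Counts made without 1 array rest on fewer comparisons, so overlap is rarer: 4 to 11 members were then higher and 7 to 9 lower, where 31.1% to 37.8% and 30.9% to 35.0% of all probe sets were. Quantile normalization, median centring and pseudocounts of 1 and 64 turned no member's sign, and median centring gave 3 members higher in place of 2. Leaving out 1 array turned the sign of 10 members. Their differences then ran from −0.27 to 0.45 for TBL18, from −1.70 to 1.40 for TBL19, from −0.16 to 1.24 for TBL20 and from −0.55 to 0.48 for TBL21. They ran from −0.56 to 0.13 for TBL28, from −1.32 to 0.15 for TBL32, from −0.62 to 1.11 for TBL34 and from −0.83 to 1.90 for TBL35. The range was −1.99 to 1.20 for TBL42 and −0.996 to 0.191 for TBL45. The cause was not tested. A mean over probe sets changed nothing, since each member has 1. Signal limits the dim members: 4 lay under background on all arrays.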
